A study of Homo sapiens with 21 samples.

Results

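A set of 10 genes around cyclic GMP signalling was described in senescent human fibroblasts: IRAG1, CORIN, PRKG1, GUCY1A1, GUCY1B1, PDE5A, PDE3A, NPR1, NPR2 and NPR3. They were taken by symbol from a table of 16383 genes, and a gene was tested where its normalised read count reached 10 in at least 3 libraries, as it did for 8 of the 10 and for 11579 genes in all. The set was chosen by the measured rise of its genes in the cells in which CDK6 was knocked down, where IRAG1 and CORIN rise most. Values of these genes in that group are therefore given as a description. No test result of these genes is given for comparisons that hold CDK6 knockdown libraries. The fit covered those comparisons, and its test results for these genes were left out.

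RNA was measured in IMR90, a line of wild-type human lung fibroblasts, in 7 groups of 3 libraries. 1 group was proliferating, with neither irradiation nor siRNA per the labels. The other 6 groups were made senescent by irradiation, given siRNA at 5 nM on day 4 and again on day 7, and collected on day 10. Of these, 2 groups were given a non-targeting siRNA, named NT3 or NT4, and 4 were given siRNA to CCND1 (cyclin D1), to CDK4, to CDK6, or to both kinases at once, here called the dual knockdown. The dose of each siRNA in the dual knockdown is not given in the sources used here, and any comparison with proliferating cells takes in both irradiation and transfection. NT3 and NT4 are the names in the sample titles, and the 6 libraries of both together are the controls below. All libraries come from 1 cell line, and nothing in the labels says that replicates were separate cultures, so p-values measure only the spread between these libraries.

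Cyclic GMP is a second messenger made by 2 kinds of enzyme. Soluble guanylate cyclase, a pair of an alpha and a beta subunit (GUCY1A1, GUCY1B1), answers to nitric oxide, and the natriuretic peptide receptors NPR1 and NPR2 carry a cyclase of their own. Cyclic GMP activates protein kinase G (PRKG1), phosphodiesterases such as PDE5A break it down, and in smooth muscle the pathway relaxes the cell. CORIN is a membrane protease, best known from heart muscle, that cuts the precursor of atrial natriuretic peptide into its active form. IRAG1 is a substrate of protein kinase G that tethers it to the inositol trisphosphate receptor, where it limits calcium release.

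Libraries held 12892442 to 21822152 reads, the fewest in an NT3 library that was also the lowest NT3 library for IRAG1, PRKG1, PDE5A, NPR2 and NPR3. Each targeted gene was low in its own knockdown. CCND1, CDK4 and CDK6 stood at 11.8%, 8.67% and 16.4% of their control means in the knockdown aimed at each, and in the dual knockdown CDK4 was at 9.41% and CDK6 at 20.6%. All 10 fibroblast markers passed the filter, with a summed level of 557181 to 1003396 over the 21 libraries. Of 11 smooth muscle and pericyte markers 10 passed, and MYH11, which defines mature smooth muscle, was at 0 to 1.92. Heart muscle markers summed to 10.2 to 37.6, with 1 of 5 past the filter. Endothelial markers passed for 3 of 7, with CDH5 at 0 to 3.28, epithelial markers for 5 of 7, and immune markers for 2 of 6 with PTPRC at 0 to 8.9. These lists were not silent. TEK of the endothelial list was at 1756 to 4484, KRT18 of the epithelial list at 826 to 1995 and CD68 of the immune list at 650 to 1588.

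To set levels roughly side by side between genes, counts were divided by the joined length of all annotated exons of a gene. That length need not be the length of the transcripts expressed. Per kilobase of exon PDE5A was the most abundant of the 10 genes, with group means of 920 to 2309 normalised counts per kb. NPR2 was at 158 to 248, IRAG1 at 76.5 to 447, PRKG1 at 40.4 to 58.2 and CORIN at 15.6 to 67.4. NPR3 was at 7.65 to 29.0, GUCY1B1 at 3.47 to 10.8 and PDE3A at 0.366 to 2.09. GUCY1A1 stayed at 0.112 to 0.276 and NPR1 at 0 to 0.52. After PDE5A came IRAG1 in proliferating cells and in the CCND1 and CDK6 knockdowns (447 against 248 for NPR2 in CDK6 knockdown), and NPR2 in NT3, NT4 and CDK4 knockdown. In the dual knockdown IRAG1 (219.6 to 252.3) and NPR2 (232.3 to 237.8) overlapped. Not divided by exon length, NPR2 had the higher mean count there (1958 against 1827).

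**Figure D1:**
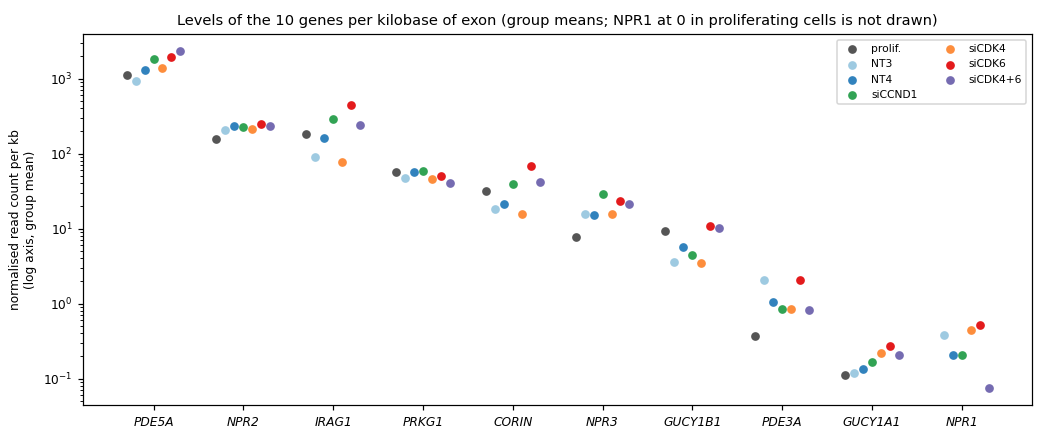
Level of each of the 10 genes per kilobase of exon (log axis; each point the mean of 3 libraries of a group), ordered by abundance. PDE5A lies highest at 920 to 2309 counts per kb and GUCY1A1 and NPR1 lie below 1.

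IRAG1 (ENSG00000072952, GRCh38 chr11:10573091-10693988, minus strand) had normalised counts of 1371, 1437 and 1391 in proliferating cells. The NT3 libraries were at 759, 826 and 479 and the NT4 libraries at 1313, 1236 and 1233. All 6 controls lay below the 3 proliferating libraries, and the 2 control groups did not overlap each other. CCND1 knockdown gave 2248, 2137 and 2237, and CDK4 knockdown gave 635, 549 and 582. CDK6 knockdown gave 3557, 3397 and 3363, and the dual knockdown 1849, 1943 and 1691. From high to low the groups ran CDK6 knockdown, CCND1 knockdown, dual knockdown, proliferating, NT4, NT3 and CDK4 knockdown. Neighbours in this order did not overlap except NT3 and CDK4 knockdown.

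CORIN (ENSG00000145244, chr4:47593999-47838106, minus strand) had the same groups as IRAG1 at the top and the bottom of its order. Proliferating libraries were at 308, 359.7 and 293, NT3 libraries at 226, 148 and 177, and NT4 libraries at 219, 213 and 208. CCND1 knockdown gave 401, 442 and 334 and CDK4 knockdown 156, 144 and 171. CDK6 knockdown gave 745, 600.1 and 696, and the dual knockdown 496, 322 and 439. CDK6 knockdown stood alone at the top. The dual knockdown, CCND1 knockdown and proliferating groups overlapped in the middle, and NT4, NT3 and CDK4 knockdown overlapped, each with its neighbour, at the bottom.

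**Figure D2:**
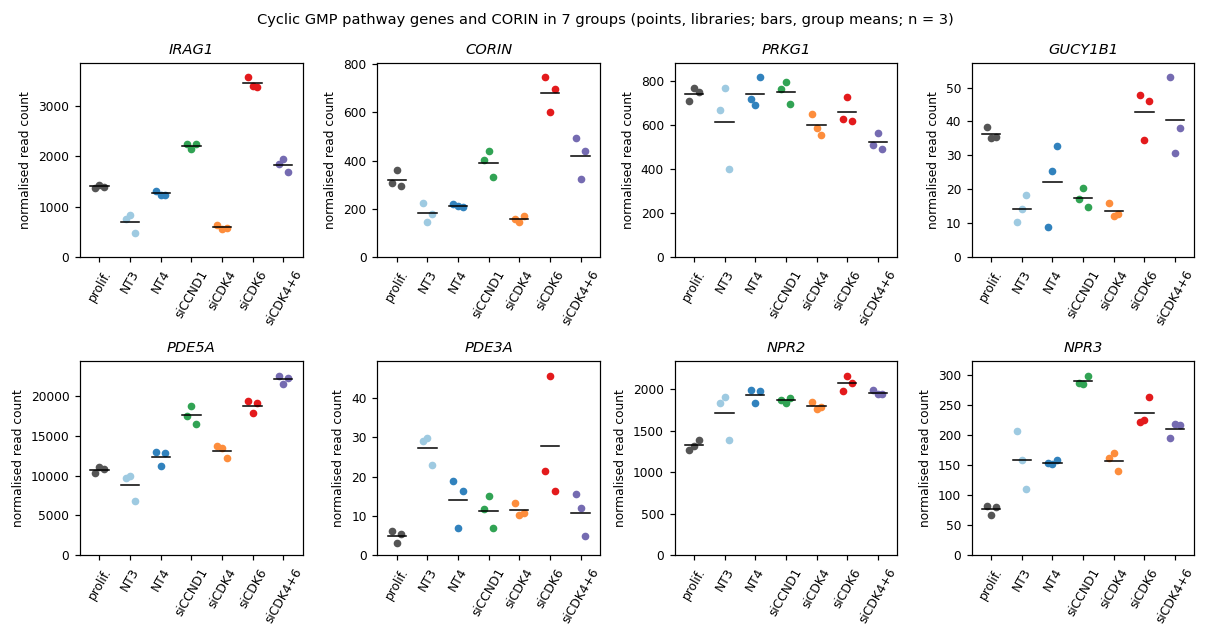
Normalised read counts of the 8 genes that passed the filter in the 7 groups (points are libraries, bars are means of 3). IRAG1 and CORIN are highest in the CDK6 knockdown, PDE5A in the dual knockdown and NPR3 in the CCND1 knockdown.

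To set levels against controls, limma was run on log2(count + 1) across all 11579 genes, so each difference below is a log2 difference on that scale with its standard error, and a gene is called where its adjusted p is under 0.05. The knockdown comparisons share the same 6 control libraries. In the senescent controls against proliferating cells IRAG1 fell by 0.61 (SE 0.11, adjusted p = 3.04e-05) and CORIN fell by 0.70 (SE 0.13, adjusted p = 7.87e-05). Against NT4 alone the IRAG1 difference was -0.15 and was not called (adjusted p = 0.291). IRAG1 was higher in NT4 than in NT3 by 0.91 (SE 0.12, adjusted p = 9.55e-06), while the CORIN difference of 0.24 was not called (adjusted p = 0.259).

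CCND1 knockdown raised both genes over the controls, IRAG1 by 1.26 (SE 0.11, adjusted p = 2.13e-08) and CORIN by 0.98 (SE 0.13, adjusted p = 8.74e-06). The dual knockdown did so too, IRAG1 by 0.99 (SE 0.11, adjusted p = 1.41e-07) and CORIN by 1.07 (SE 0.13, adjusted p = 1.1e-06). In all 4 of these cases the 3 knockdown libraries lay above all 6 controls. The size for IRAG1 depended on the control. Against NT3 alone IRAG1 was higher by 1.72 in CCND1 knockdown and by 1.44 in the dual knockdown. Against NT4 alone the differences were 0.81 and 0.53, and each was called. CDK4 knockdown went the other way for IRAG1, which fell by 0.64 (SE 0.11, adjusted p = 0.000206), but its libraries overlapped the controls and against NT3 alone the difference was -0.19 (adjusted p = 0.274). CORIN under CDK4 knockdown differed by -0.32 (SE 0.13, adjusted p = 0.104), and was called without 1 of the NT3 libraries (-0.40, adjusted p = 0.0288). In CDK6 knockdown IRAG1 was 1.90 (SE 0.11) and CORIN 1.78 (SE 0.13) above the controls, and IRAG1 was 2.36 above NT3 and 1.45 above NT4.

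Between knockdowns, the dual knockdown exceeded CDK4 knockdown for IRAG1 by 1.63 (SE 0.12, adjusted p = 1.07e-09) and for CORIN by 1.39 (SE 0.15, adjusted p = 3.55e-07). The remaining contrasts hold CDK6 libraries and are given as values only. The dual knockdown lay below CDK6 knockdown by 0.91 for IRAG1 and by 0.71 for CORIN, and in neither gene did the libraries overlap. Set against the CDK4 effect plus the CDK6 effect, the dual effect was lower by 0.27 (SE 0.16) for IRAG1 and by 0.39 (SE 0.20) for CORIN.

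**Figure D3:**
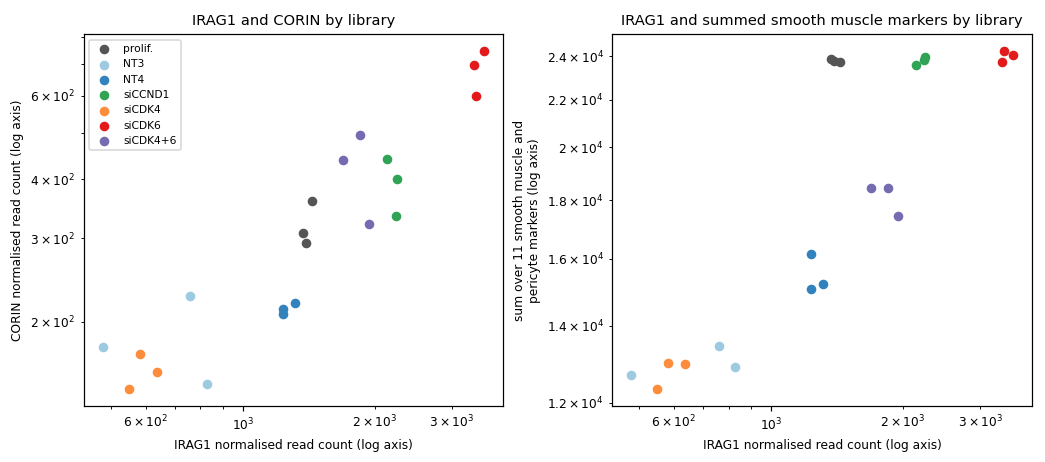
IRAG1 against CORIN (left) and against the summed level of 11 smooth muscle and pericyte markers (right) in each library, in normalised counts on log axes, coloured by group. The CDK6 knockdown libraries are at the upper right of both panels, and proliferating cells have a high marker sum at an intermediate IRAG1 level.

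The summed smooth muscle and pericyte markers followed these genes only in part. The sum adds counts, so abundant markers such as ACTG2 (3084 to 8530 over all libraries) weigh most in it. The sum was 23713 to 23886 in proliferating cells, 12691 to 13444 in NT3, 15065 to 16172 in NT4 and 12332 to 12997 in CDK4 knockdown. It was 23570.5 to 23989 in CCND1 knockdown, 23718 to 24240.5 in CDK6 knockdown and 17439 to 18441 in the dual knockdown. Sums were alike in proliferating cells, CCND1 knockdown and CDK6 knockdown, whereas mean IRAG1 counts were 1400, 2207 and 3439. The dual knockdown had a lower sum than proliferating cells but a higher IRAG1 mean (1827). Of the 10 markers tested, 8 rose and 0 fell in CCND1 knockdown, where 31% of all genes were called, and 6 rose and 1 fell in CDK6 knockdown (41.9% of all genes). In the dual knockdown 4 rose and 2 fell (44%), and in CDK4 knockdown 0 rose and 2 fell (16%). In the senescent controls 1 rose and 6 fell against proliferating cells, a share near that of all genes (68.6%). LMOD1, a leiomodin of smooth muscle actin filaments, rose by 1.92 in CDK6 knockdown, by 1.55 in CCND1 knockdown and by 1.40 in the dual knockdown. It does not stand for the whole list, since 1 marker fell in CDK6 knockdown and 2 fell in the dual knockdown. Fewer cells of a type and less RNA per cell cannot be told apart in bulk samples, and the part of these markers in the IRAG1 and CORIN results was not tested.

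By Pearson correlation of log2 counts over the 18 irradiated libraries, among 9108 genes with a mean of at least 100, the genes most like IRAG1 were ANO1 (r = 0.986), ARHGAP1 (0.969), PCSK5 (0.968), ARNT2 (0.964) and FAM8A1 (0.962). Those most like CORIN were ARNT2 (0.967), LPAR1 (0.967), VSIR (0.965), LMO7 (0.957) and SLC22A17 (0.956). IRAG1 and CORIN correlated with each other at 0.925, which placed CORIN 47th for IRAG1 and IRAG1 32nd for CORIN. These values are descriptive, since libraries of a group are not independent of one another in their treatment. Over all 21 libraries LMOD1 was first for IRAG1 (0.953), and for CORIN LPAR1 was first (0.962) and LMOD1 second (0.949). Both genes were chosen for their rise in CDK6 knockdown, and without its libraries their correlation was 0.872, with CORIN 125th for IRAG1 and IRAG1 90th for CORIN. Without those libraries ANO1 was again first for IRAG1 (0.977).

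The start-site windows of CORIN, GUCY1B1 and PDE5A, 3 of the 5 genes that rose in the dual knockdown (the others are IRAG1 and NPR3), are printed from RefSeq (GRCh38.p14, 300 bases each, 250 before and 50 from the start site, 5′ to 3′ on the gene's strand). Capitals mark every match, on either strand, to a CHR element (TTTGAA) or an Sp1 box (GGGCGG), and overlapping matches run together. CHR elements are known from promoters of cell cycle genes that are repressed in resting cells, and Sp1 boxes are common in promoters without a TATA box. The CORIN window is chr4:47838018-47838317 on the minus strand, the GUCY1B1 window chr4:155758771-155759070 on the plus strand and the first PDE5A window chr4:119628755-119629054 on the minus strand.
CORIN: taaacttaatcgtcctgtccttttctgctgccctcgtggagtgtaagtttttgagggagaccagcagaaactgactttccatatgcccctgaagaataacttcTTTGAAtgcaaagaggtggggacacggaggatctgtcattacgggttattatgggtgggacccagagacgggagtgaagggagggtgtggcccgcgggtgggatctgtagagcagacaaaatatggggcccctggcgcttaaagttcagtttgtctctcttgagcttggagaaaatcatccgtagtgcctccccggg
GUCY1B1: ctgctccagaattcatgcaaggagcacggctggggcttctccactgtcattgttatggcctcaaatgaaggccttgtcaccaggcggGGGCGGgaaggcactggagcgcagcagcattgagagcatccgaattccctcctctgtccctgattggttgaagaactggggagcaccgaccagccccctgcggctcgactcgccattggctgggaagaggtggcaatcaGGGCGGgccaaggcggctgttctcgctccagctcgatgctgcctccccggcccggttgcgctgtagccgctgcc
PDE5A: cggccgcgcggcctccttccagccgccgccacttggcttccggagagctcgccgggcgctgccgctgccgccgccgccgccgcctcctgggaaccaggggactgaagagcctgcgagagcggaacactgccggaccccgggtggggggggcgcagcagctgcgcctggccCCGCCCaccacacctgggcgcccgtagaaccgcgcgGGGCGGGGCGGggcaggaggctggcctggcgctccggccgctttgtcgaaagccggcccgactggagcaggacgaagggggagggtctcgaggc
The CORIN window held 1 CHR match, starting at position -147 from the start site, and no Sp1 box. GUCY1B1 held 2 Sp1 boxes and PDE5A held 3, of which 2 overlap. Of 34796 windows of this length 15.2% held a CHR match and 44.9% an Sp1 box. Windows were matched for 9 of the 10 genes, all but IRAG1, 14 in all. The search also took in a CArG box (found in 1.3% of all windows), AP-1 sites (TGANTCA, 7.73%), TEAD sites (GGAATG, 14.0%), 2 forms of the E2F site (TTTGGCGC, 0.652%, and TTTCCCGC, 1.63%), GATA sites (AGATAA, 10.4%) and TATA boxes (TATAAA, 11.6%). Among the 14 windows 1 of NPR3 held a TEAD site and the PDE3A window held an AP-1 site, and no window held a CArG, E2F, GATA or TATA match. Sp1 boxes were also in the other PDE5A windows and in windows of NPR2, which was not called in the dual knockdown. Windows of NPR1 and GUCY1A1, which did not pass the filter, held them too. No window but that of CORIN held a CHR match. Any part of these matches in the differences was not tested.

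The ligands and their processing came from a list of 8 genes, of which 5 passed the filter. NPPB, the precursor of B-type natriuretic peptide, was at 0, 0 and 0.886 in proliferating cells, the last being 1 read. It was at 42.6, 41.1 and 66.7 in NT3 and at 8.9, 18.5 and 6.73 in NT4, so every control lay above every proliferating library, and the 2 control siRNAs differed (-2.13, SE 0.44, adjusted p = 0.000978 for NT4 minus NT3). NPPB read 7.12, 4.66 and 10.5 in CDK6 knockdown, below the controls by 1.56 on the fitted scale (SE 0.38, adjusted p = 0.00214), with overlap of the NT4 libraries. MME, the peptidase neprilysin that degrades natriuretic peptides, was at 1693 to 1989 in the controls. MME fell to 743, 984 and 758 in CDK6 knockdown (-1.16, SE 0.08, adjusted p = 3.8e-10) and to 693, 763 and 759.8 in the dual knockdown (-1.32, SE 0.08, adjusted p = 2.62e-11). CCND1 knockdown lowered it to 1210.2, 1221 and 1444 (-0.52, SE 0.08, adjusted p = 4.96e-05), which was 0.65 above CDK6 knockdown (SE 0.09, adjusted p = 5.31e-05, in a comparison that called 12.2% of all genes). CDK6 differed from CDK4 knockdown by -1.09 (SE 0.09, adjusted p = 9.66e-09, with 34.8% of all genes called). FURIN, a protease that processes B- and C-type precursors, fell by 0.30 in CDK4 knockdown (SE 0.05, adjusted p = 0.000286). NPPA, the precursor that CORIN cuts, had 86 reads in all 21 libraries and did not pass the filter, and NPPC had 70.

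**Figure D4:**
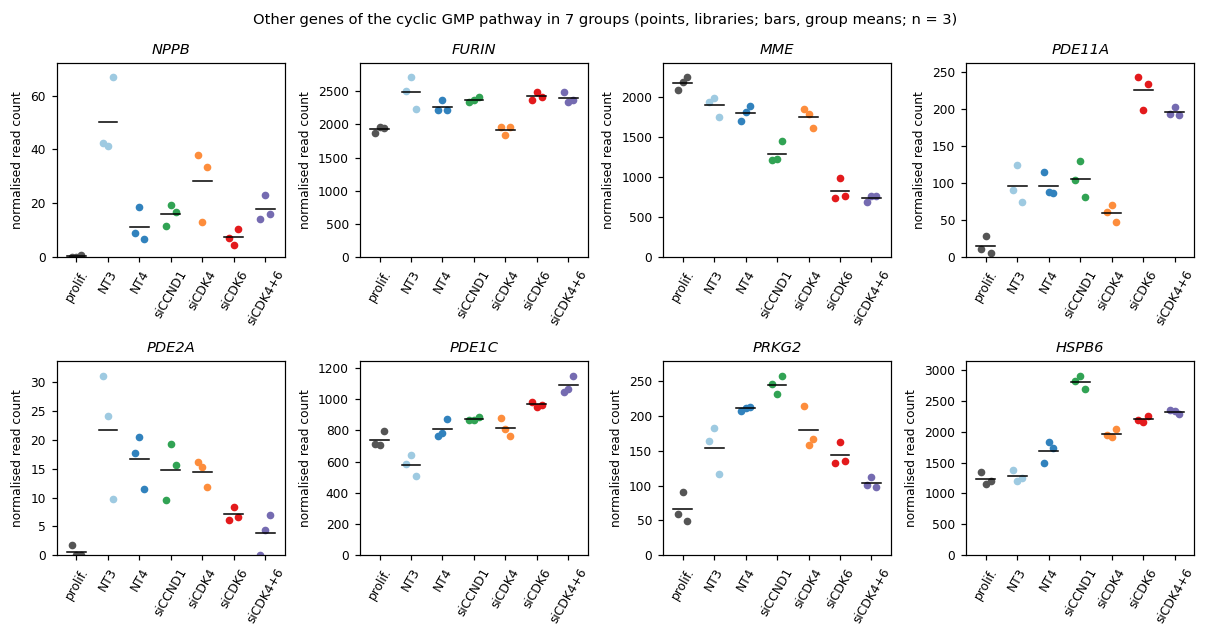
Normalised read counts of 8 other pathway genes in the 7 groups (points are libraries, bars are means of 3). MME is lowest in the CDK6 and dual knockdowns, where PDE11A is highest, and NPPB is highest in NT3.

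Among receptors, NPR2, the cyclase receptor for C-type natriuretic peptide, was at 1266, 1315 and 1389.8 in proliferating cells. NT3 was at 1839.5, 1904 and 1387 and NT4 at 1994, 1836 and 1977, so 5 of 6 controls lay above all proliferating libraries and 1 fell within them. NPR2 rose in the controls by 0.45 (SE 0.07, adjusted p = 7.42e-06) and was not called in CCND1, CDK4 or dual knockdown (differences 0.04, -0.01 and 0.11). It reached 1977, 2165 and 2069 in CDK6 knockdown. NPR3, the clearance receptor, which takes up natriuretic peptides and has no cyclase, was at 81.2, 67.0 and 80.6 in proliferating cells and 110.4 to 207 in the controls, a 2.01-fold rise on the fitted scale (log2 SE 0.13, adjusted p = 7.91e-07). CCND1 knockdown took it to 286, 284 and 298, CDK6 knockdown to 221, 225 and 262, and the dual knockdown to 194, 217 and 216. NPR3 was highest in CCND1 knockdown, 0.91 above the controls (SE 0.13, adjusted p = 2.46e-05), and the dual knockdown was 0.44 above them (SE 0.13, adjusted p = 0.00989) with libraries that overlapped, and with the compared groups fitted alone it was not called (adjusted p = 0.0545). NPR1, the receptor of atrial and B-type peptides, had 27 reads over 21 libraries, 0 in 9 of them, and did not pass the filter.

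Soluble cyclase was represented by GUCY1B1, the beta subunit, and hardly by an alpha subunit. GUCY1A1 had 39 reads over 21 libraries, with a highest value of 5.46. None of 4 other guanylate cyclases passed the filter, and GUCY1A2, the other alpha subunit, had a highest value of 11.5. GUCY1B1 itself was measured on 8 to 48 reads a library. It was at 38.4, 35.1 and 35.4 in proliferating cells, 10.4, 14.2 and 18.2 in NT3 and 8.9, 25.3 and 32.7 in NT4. The controls fell by 1.09 (SE 0.29, adjusted p = 0.00254) and lay wholly below the proliferating libraries. CDK6 knockdown gave 47.8, 34.5 and 46.0 and the dual knockdown 53.0, 30.6 and 38.0. CCND1 knockdown gave 17.0, 20.3 and 14.7, and CDK4 knockdown 16.1, 12.2 and 12.8. The 2 groups that received CDK6 siRNA overlapped the proliferating libraries and stood above the other knockdowns. The dual knockdown was 1.21 above the controls (SE 0.29, adjusted p = 0.00218), overlapping NT4, and 1.47 above CDK4 knockdown (SE 0.34, adjusted p = 0.00213). As a description, CDK6 knockdown was 1.57 above CDK4 knockdown (SE 0.34) and 1.25 above CCND1 knockdown (SE 0.34).

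Nitric oxide synthases themselves did not pass the filter. Of 9 synthases and regulators 5 passed. CAV1, the caveolin that holds endothelial synthase inactive, was called in each knockdown, higher in CCND1 (0.31), CDK6 (0.51) and dual knockdown (0.23) and lower in CDK4 knockdown (-0.36). DDAH1, which degrades an inhibitor of the synthases, rose by 0.54 in CCND1 knockdown (SE 0.05, adjusted p = 2.41e-08) and by 0.35 in the dual knockdown (SE 0.05, adjusted p = 2.46e-06).

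PDE5A, the phosphodiesterase specific for cyclic GMP, was at 10299, 11064 and 10837 in proliferating cells, 9668, 10004 and 6787 in NT3 and 12931, 11185 and 12849 in NT4. The 2 control groups lay on either side of the proliferating libraries, and the mean difference of -0.05 was not called (adjusted p = 0.6). Set against proliferating cells alone, NT3 was lower by 0.30, which was called (adjusted p = 0.0114), and NT4 was higher by 0.20, which was not (adjusted p = 0.0947). NT4 exceeded NT3 by 0.50 (SE 0.10, adjusted p = 0.000844), a call lost with those 2 groups fitted alone (adjusted p = 0.0785). CCND1 knockdown gave 17539, 18808 and 16549.6, CDK4 knockdown 13785, 13423 and 12249.6, CDK6 knockdown 19320.3, 17861 and 19146, and the dual knockdown 22577, 21519 and 22299.8. The dual knockdown libraries lay above all others. PDE5A rose by 0.77 in CCND1 knockdown (SE 0.09, adjusted p = 1.15e-06) and by 1.10 in the dual knockdown (SE 0.09, adjusted p = 1.6e-09). The rise of 0.35 in CDK4 knockdown (SE 0.09, adjusted p = 0.0087) was lost against NT4 alone (0.10, adjusted p = 0.629) and without either of 2 CDK4 knockdown libraries (adjusted p = 0.0598 and 0.0503). As a description, CDK6 knockdown was 0.51 above CDK4 knockdown (SE 0.10) and the dual knockdown 0.24 above CDK6 knockdown (SE 0.10).

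PDE3A, which breaks down cyclic AMP and is inhibited by cyclic GMP, rests on 3 to 49 reads a library. It was at 6.11, 3.19 and 5.31 in proliferating cells, 29.1, 29.8 and 23.1 in NT3 and 18.9, 6.81 and 16.4 in NT4, a rise of 1.79 in the controls (SE 0.38, adjusted p = 0.000277) that was 0.72 and not called under quantile normalization (adjusted p = 0.104). It was not called in CCND1, CDK4 or dual knockdown, and CDK6 knockdown libraries ranged from 16.3 to 45.7. Against NT3 alone it was called lower in CCND1 knockdown (-1.27, adjusted p = 0.027) and in the dual knockdown (-1.37, adjusted p = 0.0147). In the dual knockdown it was also called without 1 NT4 library (-1.07, adjusted p = 0.024) or without 1 dual knockdown library (-1.16, adjusted p = 0.0398). Of 11 other phosphodiesterases that hydrolyse cyclic GMP 7 passed. PDE11A, which acts on both cyclic nucleotides, rose from 11.4, 28.7 and 5.31 in proliferating cells to 74.0 to 124 in the controls (2.86, SE 0.29, adjusted p = 1.81e-08). It reached 243, 199 and 235 in CDK6 knockdown (1.24 above the controls, SE 0.29, adjusted p = 0.0019) and 193, 203 and 192 in the dual knockdown (1.04, SE 0.29, adjusted p = 0.00675), with no overlap with the controls in either. PDE1C, a calcium-activated phosphodiesterase, rose in all 4 knockdowns, by 0.26 in CDK4 to 0.67 in the dual knockdown, and its libraries overlapped the controls in CCND1 and CDK4 knockdown. PDE2A had 2 reads in the 3 proliferating libraries and was at 9.71 to 31.1 in the controls. The dual knockdown put PDE2A at 0, 4.37 and 7.01, below all controls (-2.42, SE 0.53, adjusted p = 0.000789).

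PRKG1, cyclic GMP-dependent kinase 1, overlapped between neighbouring groups throughout its order. It was at 709, 768 and 753 in proliferating cells, 671, 768 and 403 in NT3, 718, 693 and 818 in NT4, 764, 795 and 698 in CCND1 knockdown and 653, 588 and 557 in CDK4 knockdown. CDK6 knockdown gave 630.0, 729 and 618 and the dual knockdown 509.9, 565 and 494. Among the comparisons with a test result given, PRKG1 was called in the dual knockdown alone (-0.34, SE 0.13, adjusted p = 0.0351). That call was lost when any of 5 single libraries was left out, 2 of NT3, 1 of NT4 and 2 of the dual knockdown (adjusted p = 0.0737 to 0.127). Against NT3 alone the difference was -0.18 (adjusted p = 0.337), and the call was also lost with no filter on low values (adjusted p = 0.0502) and with the compared groups fitted alone (adjusted p = 0.133). In CDK4 knockdown it was called only without the low NT3 library (-0.28, adjusted p = 0.00536). Its relative PRKG2 rose by 1.47 in the controls (SE 0.16, adjusted p = 3.29e-08) and fell by 0.78 in the dual knockdown (SE 0.16, adjusted p = 0.000364). Of 15 relatives and substrates of the kinase 12 passed. HSPB6, a small heat shock protein phosphorylated by cyclic nucleotide kinases, rose in all 4 knockdowns, from 0.42 in CDK4 to 0.94 in CCND1. KCNMA1, the large-conductance potassium channel, rose by 0.55 in CDK6 knockdown (SE 0.10, adjusted p = 0.000147), and ITPR1, the calcium channel to which IRAG1 tethers the kinase, rose by 0.67 (SE 0.15, adjusted p = 0.000905) with overlap of libraries.

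**Figure D5:**
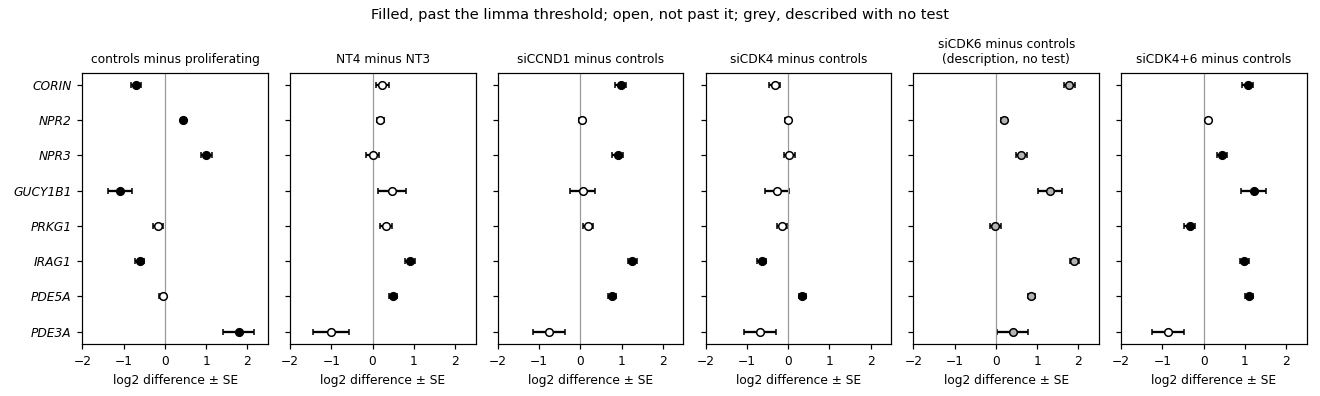
Log2 differences with standard errors of the 8 tested genes in 6 comparisons (filled points past the limma threshold, open points not past it, grey points described with no test result given). IRAG1 and CORIN lie to the right of 0 in the CCND1, CDK6 and dual knockdowns and to the left of 0 in the senescent controls.

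Counted over the 8 genes, 3 rose and 3 fell in the senescent controls against proliferating cells. Of all 11579 genes 68.6% were called there, 32.6% higher and 36.1% lower, so the share of members called was near that of all genes. Libraries of 5 of the 8 did not overlap, against 54.1% of all genes. NT4 exceeded NT3 for 2 of the 8 and lay below it for 0 (27.8% of all genes called, 14.7% higher and 13.1% lower), and 3 of the 8 did not overlap (34.9%).

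CCND1 knockdown raised 4 of the 8, IRAG1, CORIN, PDE5A and NPR3, and lowered 0, where 31% of all genes were called, 16.7% higher and 14.4% lower. The same 4 lay wholly above the controls (21.2% of all genes did not overlap). CDK4 knockdown raised PDE5A and lowered IRAG1, where 16% of all genes were called, 8.46% higher and 7.55% lower, and 0 of the 8 lay apart from the controls (11.2%). The dual knockdown raised 5, IRAG1, CORIN, GUCY1B1, PDE5A and NPR3, and lowered PRKG1, where 44% of all genes were called, 22.5% higher and 21.5% lower, and 3 of the 8 lay apart (28.3%). In CDK6 knockdown, as a description, 5 of the 8 lay wholly above the controls, where 28.6% of all genes did not overlap and 41.9% were called, 21.1% higher and 20.8% lower. The median difference of the 8 was 0.47 in CCND1, -0.21 in CDK4 and 0.72 in the dual knockdown, beside medians over all genes of -0.01, 0.00 and 0.00. In CDK6 knockdown it was 0.74 (all genes -0.01), a description only, since the genes were chosen for their rise there. The other comparisons with the controls use the same control libraries as that rise, and the dual knockdown also received CDK6 siRNA. Counts and medians of these genes there are therefore not independent of the choice.

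Between knockdowns, the dual exceeded CDK4 knockdown for 5 of the 8 and lay below it for 0, where 30.6% of all genes were called, 15.8% higher and 14.8% lower, and 6 of the 8 did not overlap (46.5%). The NPR3 call among these was 0.42 (adjusted p = 0.0433) and was lost on leaving out any 1 of the 6 libraries compared (adjusted p = 0.0518 to 0.158). As a description of the comparisons that hold CDK6 libraries, 7 of the 8 lay wholly higher in CDK6 than in CDK4 knockdown, where 51.7% of all genes did not overlap. Between the dual and CDK6 knockdowns 1 lay wholly higher and 5 lower in the dual (36.2% of all genes), and between CCND1 and CDK6 knockdown 1 lay wholly higher and 5 lower in CCND1 knockdown (36.5%).

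Calls were counted in the same way for the pathway lists, and counts are given here for the kinase and the export lists alone. Among the 12 kinase relatives and substrates 8 rose and 1 fell in CCND1 knockdown (31% of all genes called), 9 and 0 in CDK6 knockdown (41.9%), 8 and 2 in the dual knockdown (44%), and 2 and 1 in CDK4 knockdown (16%). Their median differences were 0.39, 0.45, 0.22 and 0.05. Of 3 genes for export and gated channels, the transporters ABCC4 and ABCC5 and the channel HCN2, all 3 rose in CDK6 and dual knockdown, 2 in CCND1 and 1 in CDK4 knockdown, beside shares of all genes called higher of 21.1%, 22.5%, 16.7% and 8.46%. NT4 exceeded NT3 for all 3 as well, and for 6 of the 12 kinase relatives and substrates, where 14.7% of all genes were called higher. The lists did not all rise. The ligand and processing list summed to 4754 to 5860 in NT3, 5235 to 5320 in NT4 and 4578 to 4878 in CDK6 knockdown. Synthases and regulators summed to 16922 to 18702, 19029 to 19581 and 23868 to 25550 in these groups. The other phosphodiesterases summed to 745 to 944, 1100 to 1185 and 1409 to 1464.

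Some values carry a limit of annotation. LYVE1 overlaps IRAG1 on the same strand and was at 0 to 11.7, SPAG8 overlaps NPR2 on the opposite strand at 1.04 to 16.7, and CSTF2T overlaps PRKG1 on the opposite strand at 379.5 to 705. The strand setting of the counting is not given in the sources used here, so reads of such partners cannot be told apart where exons overlap.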

How the data were processed

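The data are 21 poly(A) RNA-seq libraries of IMR90 fibroblasts, 3 in each of 7 groups. The authors deposited an expression signal for each gene in each library, which the table's columns name as normalised counts. All values were whole multiples of a step particular to the library (100% within a tolerance of 0.01), so reads were recovered by division. Per the submitters' processing notes, Trimmomatic 0.38.1, HISAT2 2.2.1, featureCounts 2.0.3, FastQC 0.74, MultiQC and DESeq2 2.11.40.8 were used with the build hg38. The annotation and the strand setting are not given in the sources used here. Columns name a group without numbering its replicates, so replicates have no order.

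A gene entered the tests if it reached 10 in 3 or more libraries, as 11579 of 16383 did. limma 3.58.1 (R 4.3.3) was fitted to log2(value + 1) with a mean for every group across the 21 libraries and a trended empirical Bayes variance. Tests were two-sided, with Benjamini-Hochberg adjustment over all tested genes of a comparison and a threshold of 0.05. Controls are the mean of NT3 and NT4. Comparisons of the 10 genes that hold CDK6 libraries are described with no test result. Tests of 6 of the genes had been planned there, and their results were computed and then left out. The fit was tested on simulated data. Alternatives were edgeR 4.0.16 and DESeq2 1.42.0 on the recovered reads, other pseudocounts, filters and scalings, each control alone, the compared groups alone and each library left out. Gene positions and exon lengths are from GENCODE v44 and start-site windows from RefSeq. The 10 genes, the pathway lists and the marker lists were chosen with earlier results of these data known. All 10 genes are named, and from each pathway list genes among the 4 largest differences past the threshold in a comparison, a selection made with their values in view.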

Additional observations from a re-analysis of the deposited data

How the results depend on the processing

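The number of genes called moved by more than 1.5 times in 2 comparisons, and the cause was not tested. Between NT4 and NT3 it went from 2 to 1 with the compared groups alone and was 2 to 4 on leaving out single libraries (4 without the second NT3 library). In CDK4 knockdown it went from 2 to 1 against NT3 alone, against NT4 alone and with the compared groups alone, and was 1 to 3 on leaving out single libraries (1 without the first or the second CDK4 library). Calls in comparisons that hold CDK6 libraries, on which the genes were chosen, were left out, so no alternatives are given for them. IRAG1 in CDK6 knockdown (1.90) was 2.36 above NT3 alone and 1.45 above NT4 alone.

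The differences that changed sign were uncalled in every setting that reversed them. PDE5A in the controls against proliferating cells was 0.059 with median centring, 0.021 with quantile normalization and 0.20 with NT4 alone, and -0.10 to 0.036 on leaving out single libraries, whereas against NT3 alone it was -0.30 and called (adjusted p = 0.0114). NPR3 between NT4 and NT3 was -0.0069 with median centring, -0.0018 with quantile normalization, -0.048 with edgeR, -0.051 with DESeq2 and -0.23 to 0.22 without single libraries. In CCND1 knockdown GUCY1B1 was -0.18 against NT4, -0.041 with edgeR, -0.052 with DESeq2 and -0.21 to 0.23 without single libraries, and NPR2 was -0.020 with quantile normalization, -0.053 against NT4 and -0.029 to 0.085 without single libraries. In CDK4 knockdown against NT3 alone PRKG1 was 0.015 and NPR2 0.086, and without single libraries NPR2 was -0.082 to 0.032 and NPR3 -0.092 to 0.13. Between the dual and CDK4 knockdowns PDE3A was 0.25 with quantile normalization and -0.48 to 0.25 without single libraries.

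The table's columns carry no replicate number of the labels, so no fit could be blocked on it. Column headers hold library numbers that fall into 3 runs with each irradiated group once, and a replicate block on these runs, chosen after seeing the data, gave 3 genes in CDK4 knockdown in place of 2 (CORIN -0.32, adjusted p = 0.0315). NPR3 between the dual and CDK4 knockdowns (0.42) was not called with the block (adjusted p = 0.064), nor in the irradiated libraries alone with no block (adjusted p = 0.05004), nor with no filter (adjusted p = 0.0636). Deviations of libraries in the same run correlated at -0.11 to 0.10 (45 pairs, 1 over 0.1), with a median of 0.037 against -0.017 for different runs, and 13 of 18 libraries lay nearest to their own run. Since not every pair was over 0.1, the main fit was left without a run block. That is a strict rule, and whether libraries of a run share an effect was not tested. Genes on few reads, GUCY1B1 and PDE3A, have the widest standard errors.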
